A study of Mus musculus with 10 samples.

Results

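Regulatory T cells are CD4 T cells that restrain other immune cells, and they gather in many tumors. The transcription factor FOXP3 fixes their identity, high CD25 lets them take up interleukin 2, and interleukin 10 and surface-bound latent TGF-beta are among the signals they use. The members described here are the 7 genes Foxp3, Ikzf2, Il2ra, Ccr8, Il10, Il10ra and Lrrc32, taken by symbol from the 27919 genes of the table, and all 7 had a row. They were read in RNA from B16F10 tumors, which grow from a mouse melanoma line, as TPM, a transcript abundance scaled for transcript length and library size.

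The tumors of interest overexpressed Ly86, which encodes the secreted protein MD-1 (4 tumors, 5 libraries), and they were set against tumors with the vector (3 tumors, 5 libraries). Antibodies to PD-1 and to CTLA4 had been given in 4 rounds to the mice of both groups. The data analysed here hold no tumor without these antibodies, and CTLA4 is itself abundant on regulatory T cells. In mice, some antibodies against CTLA4 remove regulatory T cells from tumors, and the labels do not name the isotype used. Ly86 tumor 1, Vector tumor 1 and Vector tumor 2 were each sequenced as a pair of pieces. The pieces of a tumor were averaged as log2(TPM + 1), so that the tumor was the replicate.

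Several libraries stood apart before any comparison was made. The first piece of Vector tumor 2 had the highest level of 6 of the 7 members, and its second piece lay below all 5 Ly86 libraries for all 7. Both pieces of Vector tumor 1 lay below all Ly86 libraries for 6 members. The level of Ly86 ran from 49.2 to 81.9 TPM in the Ly86 libraries and from 6.24 to 80.9 TPM in the Vector libraries, with the first piece of Vector tumor 2 at the top of the Vector range. The 6 melanoma markers summed to between 13386 and 19532 TPM in the Ly86 libraries and between 9565 and 18477 TPM in the Vector libraries, so the label of melanoma was borne out by pigment cell genes in all 10.

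No member separated the groups. As mean log2(TPM + 1), all 7 averaged higher in the Ly86 tumors, where 47.1% of all 27919 genes did. Lrrc32 was lower with quantile normalization, at -0.12, and with TPM averaged before the log, at -0.18. Its mean TPM was 5.09 in Ly86 and 6.38 in Vector tumors, and that of Foxp3 0.809 and 0.80. Other alternatives that turned a sign are given below. For 0 of 7 did the Ly86 tumors all lie above the Vector tumors, against 3.07% of all genes. For 0 of the 4 members with a mean of at least 1 TPM did they all lie above, against 4.71% of such genes, or all below, against 5.75%. With that minimum, 4 members were tested among 14556 genes, and Foxp3, Il2ra and Ccr8 fell below it and were taken from the same limma fit without a minimum. With limma, 0 members had an adjusted p under 0.05, as did 0% of all genes in either fit. At an unadjusted p under 0.05 there were also 0 members, where 10.8% of genes passed with the minimum and 7.22% without it. The 95% intervals of the members' differences, given below, all included 0 and reached well to both sides of it for most members, so a difference of either sign lies within the error. In bulk tissue, fewer cells of a type and less RNA per cell cannot be told apart.

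The members differed widely in level, and TPM is scaled per transcript length, so levels can be compared between genes. Il10ra was the highest of the 7 in 8 of 10 libraries and Lrrc32 in the other two, the pieces of Vector tumor 1. Ccr8 was the lowest or tied for lowest in 7 libraries. Mean levels over the 7 tumors were 12.3 TPM for Il10ra, 5.64 for Lrrc32, 2.15 for Ikzf2, 1.45 for Il10, 0.888 for Il2ra, 0.805 for Foxp3 and 0.468 for Ccr8. The last 3 lay within each other's spread between tumors.

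**Figure D1:**
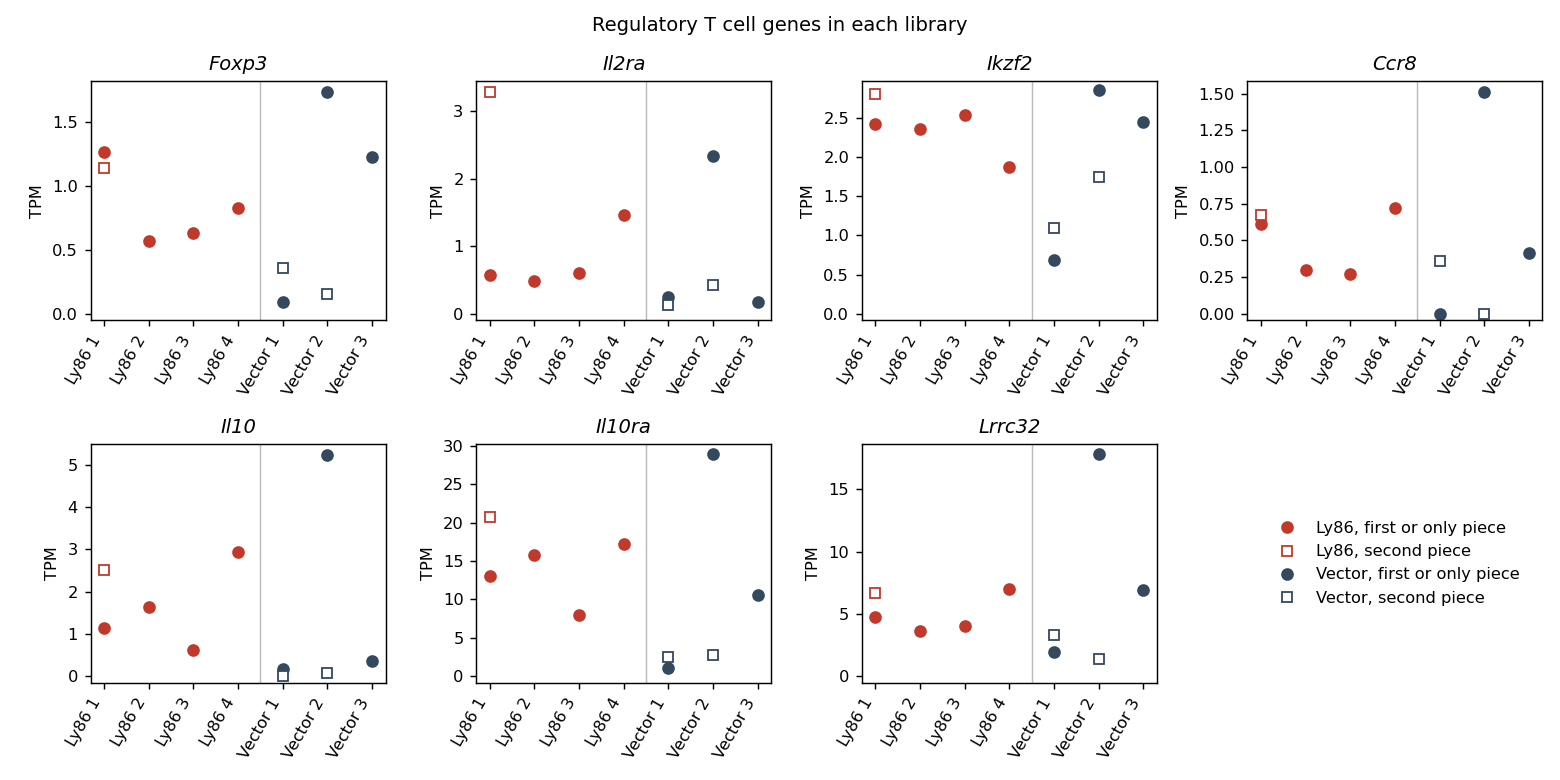
Level in TPM (vertical axis, a separate scale for each gene) of the 7 regulatory T cell genes in the 4 Ly86 tumors (red) and the 3 Vector tumors (dark blue); filled circles are the first or only piece and open squares the second piece. The first piece of Vector tumor 2 is the highest point for 6 of 7 genes, and its second piece lies below every Ly86 point for all 7.

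Foxp3, the lineage-defining transcription factor, was low in both groups, and no difference between them was resolved. The first and second piece of Ly86 tumor 1 held 1.27 and 1.14 TPM, and Ly86 tumors 2, 3 and 4 held 0.57, 0.63 and 0.83 TPM. The pieces of Vector tumor 1 held 0.09 and 0.36 TPM, those of Vector tumor 2 held 1.74 and 0.15 TPM, and Vector tumor 3 held 1.23 TPM. The Ly86 values thus lay inside the Vector range, and 6 of 10 libraries were under 1 TPM. On the log2(TPM + 1) scale the level averaged 0.84 ± 0.22 in Ly86 tumors (SD, n = 4) and 0.76 ± 0.44 in Vector tumors (SD, n = 3). The log2 difference was 0.086 (SE 0.24, 95% interval -0.48 to 0.65, limma adjusted p = 0.934). Leaving out Vector tumor 1 gave -0.15, and leaving out only the high piece of Vector tumor 2 gave 0.29.

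Because Foxp3 is the gene on which the comparisons with T cell markers turn, its promoter windows are shown. RefSeq (GRCm38.p6) gives 2 start sites for mouse Foxp3, and each window runs from 250 bases before a start to 50 after it. Promoter windows were at hand for 3 of the 7 members. Capitals mark the motif TTCNNNGAA, the palindrome that STAT factors such as STAT5 recognise, searched on both strands.
Foxp3, chrX:7579426-7579725, plus strand: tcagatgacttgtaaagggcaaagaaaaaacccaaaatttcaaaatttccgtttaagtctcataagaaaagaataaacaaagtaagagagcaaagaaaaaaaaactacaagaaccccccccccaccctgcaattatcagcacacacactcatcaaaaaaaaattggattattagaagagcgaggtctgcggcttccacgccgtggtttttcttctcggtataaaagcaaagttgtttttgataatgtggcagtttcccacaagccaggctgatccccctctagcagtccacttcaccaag
Foxp3, chrX:7580233-7580532, plus strand: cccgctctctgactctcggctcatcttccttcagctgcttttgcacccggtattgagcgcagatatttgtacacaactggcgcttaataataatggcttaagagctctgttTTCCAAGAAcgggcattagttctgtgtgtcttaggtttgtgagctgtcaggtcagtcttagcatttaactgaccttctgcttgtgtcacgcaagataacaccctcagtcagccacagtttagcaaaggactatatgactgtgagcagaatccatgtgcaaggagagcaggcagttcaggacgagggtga
The motif occurred 1 time in the window of the second start and 0 times in the window of the first, and 8.3% of the 32851 promoter windows of the reference held it. It was absent from the windows of Il2ra and Ccr8. A match describes the letters of the window and is no evidence of binding.

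Ikzf2 encodes Helios, a zinc finger factor carried by many regulatory T cells. The pieces of Ly86 tumor 1 held 2.43 and 2.81 TPM and Ly86 tumors 2 to 4 held 2.36, 2.54 and 1.88 TPM. The pieces of Vector tumor 1 held 0.69 and 1.10 TPM, those of Vector tumor 2 held 2.87 and 1.75 TPM, and Vector tumor 3 held 2.45 TPM. The Ly86 libraries formed a narrow band that overlapped the upper Vector libraries, and the level averaged 1.74 ± 0.15 log2(TPM + 1) in Ly86 tumors (SD, n = 4) and 1.47 ± 0.48 in Vector tumors (SD, n = 3). The log2 difference was 0.27 (SE 0.27, 95% interval -0.35 to 0.89, limma adjusted p = 0.749), and -0.0082 without Vector tumor 1. The level of Ikzf2 did not follow the T cell marker Cd3e closely: it came to between 19.2% and 69.0% of the Cd3e TPM in the Ly86 libraries and between 17.3% and 458% in the Vector libraries.

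Il2ra encodes CD25, the alpha chain that gives the interleukin 2 receptor its high affinity. The pieces of Ly86 tumor 1 held 0.57 and 3.29 TPM and so differed 5.77-fold within a single tumor, and Ly86 tumors 2 to 4 held 0.49, 0.60 and 1.46 TPM. The pieces of Vector tumor 1 held 0.24 and 0.13 TPM, those of Vector tumor 2 held 2.34 and 0.42 TPM, and Vector tumor 3 held 0.17 TPM. All Ly86 libraries thus lay above all Vector libraries except the first piece of Vector tumor 2. The level averaged 0.98 ± 0.41 log2(TPM + 1) in Ly86 tumors (SD, n = 4) and 0.53 ± 0.51 in Vector tumors (SD, n = 3). The log2 difference was 0.45 (SE 0.31, 95% interval -0.29 to 1.19, limma adjusted p = 0.795), and 0.042 when divided tumors were represented by their first piece. Vector tumor 3 held the lowest tumor level of Il2ra and the highest of Foxp3, both by small margins. Il2ra was 0.17 TPM there and 0.185 TPM in Vector tumor 1. Foxp3 was 1.23 TPM there and 1.205 TPM in Ly86 tumor 1.

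Ccr8 encodes a chemokine receptor that marks activated regulatory T cells in tumors. Its level was 0.61 and 0.67 TPM in the pieces of Ly86 tumor 1 and 0.30, 0.27 and 0.72 TPM in Ly86 tumors 2 to 4. In Vector tumors it was listed at 0 in the first piece of tumor 1 and in the second piece of tumor 2, with 0.36 TPM in the second piece of tumor 1, 1.51 TPM in the first piece of tumor 2 and 0.41 TPM in tumor 3. The only library above 1 TPM was thus a Vector library. The log2 difference was 0.094 (SE 0.16, 95% interval -0.29 to 0.47, limma adjusted p = 0.885), -0.025 once Vector tumor 1 was left out, and 0.32 once the high piece of Vector tumor 2 was.

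Il10 encodes interleukin 10, a cytokine that dampens myeloid cells and is made by macrophages as well as T cells. The pieces of Ly86 tumor 1 held 1.14 and 2.52 TPM and Ly86 tumors 2 to 4 held 1.63, 0.63 and 2.93 TPM. The pieces of Vector tumor 1 held 0.17 TPM and a listed 0, those of Vector tumor 2 held 5.23 and 0.09 TPM, and Vector tumor 3 held 0.35 TPM. All Ly86 libraries lay above 4 of the 5 Vector libraries and below the first piece of Vector tumor 2. The log2 difference was 0.74 (SE 0.41, 95% interval -0.21 to 1.69, limma adjusted p = 0.550). It came to 0.48 once Vector tumor 1 was left out, and to 1.16 (SE 0.33, limma adjusted p = 0.114) once the high piece of Vector tumor 2 was. First pieces alone gave 0.19 (SE 0.63, limma adjusted p = 1).

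Il10ra encodes the ligand-binding chain of the interleukin 10 receptor, which macrophages and lymphocytes both carry. Its level was 13.0 and 20.8 TPM in the pieces of Ly86 tumor 1 and 15.7, 8.01 and 17.2 TPM in Ly86 tumors 2 to 4. It was 1.03 and 2.46 TPM in the pieces of Vector tumor 1, 28.9 and 2.82 TPM in those of Vector tumor 2, and 10.6 TPM in Vector tumor 3. Vector tumor 3 lay above Ly86 tumor 3, and the first piece of Vector tumor 2 above all other libraries. The level averaged 3.89 ± 0.48 log2(TPM + 1) in Ly86 tumors (SD, n = 4) and 2.79 ± 1.20 in Vector tumors (SD, n = 3). The log2 difference of 1.10 was the largest among the 7 (SE 0.52, 95% interval -0.10 to 2.30, limma adjusted p = 0.491), and it was 0.41 without Vector tumor 1.

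Lrrc32 encodes GARP, the surface anchor that holds latent TGF-beta on activated regulatory T cells and is also found on endothelium and platelets. The pieces of Ly86 tumor 1 held 4.73 and 6.70 TPM and Ly86 tumors 2 to 4 held 3.6, 4.01 and 7.02 TPM. The pieces of Vector tumor 1 held 1.91 and 3.29 TPM, those of Vector tumor 2 held 17.8 and 1.39 TPM, and Vector tumor 3 held 6.94 TPM. The Ly86 libraries sat inside the Vector range, and the level averaged 2.57 ± 0.37 log2(TPM + 1) in Ly86 tumors (SD, n = 4) and 2.52 ± 0.62 in Vector tumors (SD, n = 3). The log2 difference was 0.047 (SE 0.33, 95% interval -0.70 to 0.80, limma adjusted p = 0.975). Omitting Vector tumor 1 turned it to -0.30, and omitting the high piece of Vector tumor 2 gave 0.54.

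**Figure D2:**
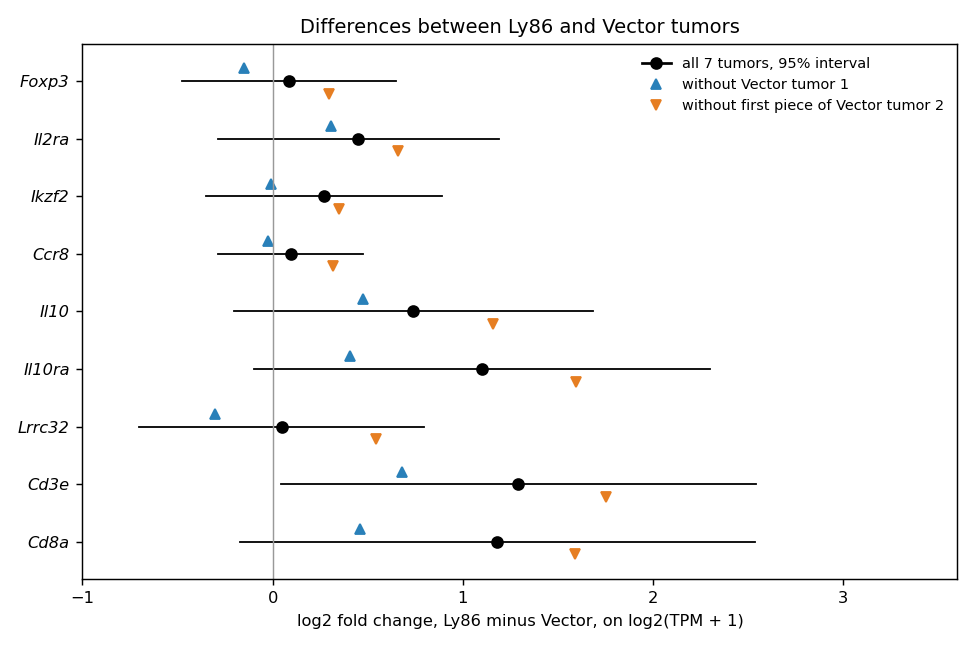
Log2 fold change, Ly86 minus Vector, on the log2(TPM + 1) scale (horizontal axis) for the 7 members and the T cell markers Cd3e and Cd8a; black points with bars are the estimate from 4 Ly86 and 3 Vector tumors with its 95% interval, triangles the estimate without Vector tumor 1 and inverted triangles that with the high piece of Vector tumor 2 left out. Every member's interval includes 0, and the estimates for Foxp3, Ikzf2, Ccr8 and Lrrc32 lie below 0 without Vector tumor 1.

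The estimates of 6 members moved by over 1.5 times with the value added before the log, Il10ra being the exception. With 0.1 in place of 1, the log2 difference was 0.45 (SE 0.62) for Foxp3, 0.63 (SE 0.55) for Ccr8, 1.17 (SE 0.70) for Il2ra and 1.95 (SE 0.77) for Il10, with limma adjusted p of 0.838, 0.796, 0.754 and 0.419. It was 0.43 (SE 0.40, adjusted p = 0.719) for Ikzf2 and 0.13 (SE 0.38, adjusted p = 0.926) for Lrrc32.

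In Vector tumor 2, the pieces differed by more than the groups did for all 7 members. For Foxp3 they were 1.25 log2 units apart, the first piece being 11.6-fold higher in TPM, against a group difference of 0.086. For Il10 they were 2.51 log2 units apart, for Il10ra 2.97 and for Lrrc32 2.98, always with the first piece higher. The summed markers of all other cell types listed were also higher in the first piece, and those of melanoma lower. Fibroblast markers summed to 1734 TPM in the first piece and 42.4 TPM in the second, and platelet markers to 311.3 and 8.47 TPM. Dendritic cell markers summed to 18.55 and 4.93 TPM, and B cell markers to 6.5 and 0.70 TPM. The 14 T cell markers summed to 272.6 TPM in the first piece and 49.6 TPM in the second, the 10 macrophage markers to 3273 and 214.4 TPM, the 6 endothelial markers to 295.6 and 65.9 TPM, and the 6 melanoma markers to 9565 and 18477 TPM. Ikzf2 was the member that differed least between these pieces, by 0.49 log2 units. The pieces of Ly86 tumor 1 were within 0.15 log2 units of each other for Foxp3 and Ccr8 but 1.45 apart for Il2ra, where the second piece was higher. For Ikzf2, Ccr8, Il10 and Il10ra they were closer than the groups, the largest gap among these being 0.72 for Il10. For Foxp3 the gap of 0.085 was about equal to the group difference of 0.086. The pieces of Vector tumor 1 were closer than the groups for Il2ra (0.13), Il10 (0.23) and Il10ra (0.77), with Il10ra higher in the second piece.

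Foxp3 was then set against Cd3e, a chain of the T cell receptor complex, and Cd8a, the coreceptor of cytotoxic T cells, within each library. Both markers averaged higher in the Ly86 tumors by more than Foxp3 did. Cd3e held 10.1 and 8.42 TPM in the pieces of Ly86 tumor 1 and 12.3, 3.68 and 6.56 TPM in Ly86 tumors 2 to 4. It held 0.72 and 0.24 TPM in the pieces of Vector tumor 1, 16.6 and 1.59 TPM in those of Vector tumor 2, and 2.98 TPM in Vector tumor 3. Its log2 difference was 1.29 (SE 0.54, limma adjusted p = 0.455), and that of Cd8a 1.18 (SE 0.59, adjusted p = 0.507). Cd8a ranged from 4.50 to 14.5 TPM in the Ly86 libraries and from 0.66 to 19.0 TPM in the Vector libraries.

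Foxp3 amounted to 12.6% and 13.5% of the Cd3e TPM in the pieces of Ly86 tumor 1, and to 4.64%, 17.1% and 12.7% in Ly86 tumors 2 to 4. It amounted to 12.5% and 150% in the pieces of Vector tumor 1, 10.5% and 9.43% in those of Vector tumor 2, and 41.3% in Vector tumor 3. Vector tumors 1 and 3 thus stood above all Ly86 tumors and Vector tumor 2 among them. The value of 150% rests on 0.36 TPM of Foxp3 over 0.24 TPM of Cd3e, the lowest Cd3e level in the data. The log2 ratio of Foxp3 to Cd3e averaged -3.22 ± 0.83 in Ly86 tumors (SD, n = 4) and -1.94 ± 1.21 in Vector tumors (SD, n = 3). The difference of -1.29 did not pass, with a two-sided exact permutation p of 0.229, where the 35 assignments allow a smallest p of 0.0286. It was -1.98 without Vector tumor 2 and -0.73 when divided tumors were represented by their first piece.

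Relative to Cd8a the picture was similar. Foxp3 amounted to 10% and 7.89% of the Cd8a TPM in the pieces of Ly86 tumor 1 and to 4.10%, 14.0% and 6.71% in Ly86 tumors 2 to 4. It amounted to 9.0% and 54.5% in the pieces of Vector tumor 1, 9.16% and 5.64% in those of Vector tumor 2, and 18.1% in Vector tumor 3. The second piece of Vector tumor 1 and Vector tumor 3 lay above all Ly86 libraries, and the other 3 Vector libraries lay among them. The value of 54.5% rests on 0.36 TPM of Foxp3 over 0.66 TPM of Cd8a, the lowest Cd8a level in the data. The log2 ratio averaged -3.71 ± 0.74 in Ly86 tumors (SD, n = 4) and -2.81 ± 0.87 in Vector tumors (SD, n = 3), a difference of -0.90 with a two-sided exact permutation p of 0.171. It was -0.60 without Ly86 tumor 2, -0.58 without Vector tumor 1, -1.39 without Vector tumor 2 and -0.54 when divided tumors were represented by their first piece. Adjusted over the 2 ratios, both exact permutation p-values were 0.229. The 2 ratios share Foxp3 and are not independent. Against Cd4, the coreceptor of the lineage that regulatory T cells belong to, Foxp3 came to between 28.9% and 76.0% in the Ly86 libraries. It came to between 22.4% and 64.4% in the Vector libraries, and the ranges overlapped. The log2 difference was 0.35 (two-sided exact permutation p = 0.429), opposite in sign to those for Cd3e and Cd8a. Cd4 is also carried by some mouse dendritic cells and macrophages.

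**Figure D3:**
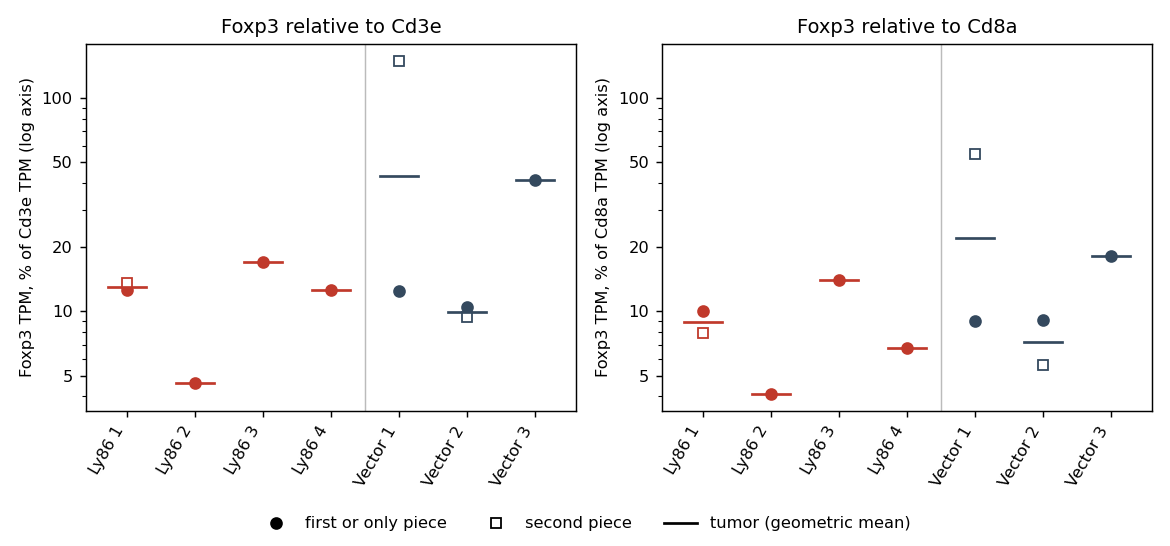
Foxp3 TPM as a percentage of the Cd3e TPM (left) and of the Cd8a TPM (right) on a log axis in the 4 Ly86 tumors (red) and 3 Vector tumors (dark blue); points are pieces and bars the geometric mean of a tumor. The bars of Vector tumors 1 and 3 lie above those of all Ly86 tumors. The 150% in the second piece of Vector tumor 1 stands far above its first piece at 12.5%. That first piece lies among the Ly86 points in both panels.

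Other genes known from regulatory T cells averaged higher as a group without passing. Of 20 such genes 15 were tested, and 0 passed in limma. As mean log2 values all 15 averaged higher in the Ly86 tumors, against 43.8% of all tested genes. Their median log2 difference was 0.52, where that of all tested genes was -0.037. Of the 15, 4 had an unadjusted p under 0.05, against 10.8% of all tested genes, and for 4 the Ly86 tumors all exceeded the Vector tumors, which held for 4.71% of all tested genes. Those were tumor means of log2 values. With TPM averaged over pieces, only Il1rl1 of these 4, described below, stayed apart. Many of these genes are also expressed by activated CD8 T cells or other cells. Without Vector tumor 1, 13 of 15 averaged higher, with a median of 0.24. With TPM averaged before the log 14 of 15 did, as with quantile normalization. Mean TPM was lower in the Ly86 than in the Vector tumors for Ctla4 (2.05 against 3.22), Nt5e (2.14 against 2.565) and Il1r2 (4.04 against 4.70).

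Il1rl1, which encodes the interleukin 33 receptor ST2 of tissue regulatory T cells and mast cells, held 3.12 and 5.70 TPM in the pieces of Ly86 tumor 1 and 2.64, 5.24 and 5.27 TPM in Ly86 tumors 2 to 4. It held 0.15 and 0.35 TPM in the pieces of Vector tumor 1, 4.06 and 0.04 TPM in those of Vector tumor 2, and 1.44 TPM in Vector tumor 3. All Ly86 tumors lay above all Vector tumors, with a log2 difference of 1.45 (SE 0.32, limma adjusted p = 0.437). Tnfrsf9, the co-stimulatory receptor 4-1BB, was between 13.9 and 23.3 TPM in the Ly86 libraries and between 2.95 and 23.4 TPM in the Vector libraries, a log2 difference of 1.27 (SE 0.36, limma adjusted p = 0.437). Ctla4, a target of FOXP3 and of one of the antibodies given, held 1.75 to 2.68 TPM in the Ly86 libraries and 0.38 to 14.3 TPM in the Vector libraries. Its log2 difference was 0.18 (SE 0.52, limma adjusted p = 0.938), and the sign turned without Vector tumor 1, at -0.26, and without Vector tumor 3, at -0.10. Ikzf4, which encodes Eos, a relative of Helios, was at most 1.18 TPM in the Ly86 libraries and 0.71 TPM in the Vector libraries, below the minimum for testing.

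The interleukin 2 receptor is built from CD25 and the chains encoded by Il2rb and Il2rg, and signals through JAK kinases to STAT5. Il2 is not analysed here. Of the 9 other genes on this list, 8 averaged higher in the Ly86 tumors, against 43.8% of all tested genes. Their median log2 difference was 0.20, and 0 passed in limma. An unadjusted p under 0.05 was reached by 0 of the 9, against 10.8% of all tested genes. Il2rg, the chain shared by several cytokine receptors, was 36.3 to 80.5 TPM in the Ly86 libraries and 7.13 to 119.7 TPM in the Vector libraries, a log2 difference of 1.16 (SE 0.51, limma adjusted p = 0.466). Il2rb, the beta chain that natural killer and CD8 T cells also carry, differed by 1.10 (SE 0.68, adjusted p = 0.589). Cish, a feedback inhibitor induced by STAT5, differed by 0.51 (SE 0.23, adjusted p = 0.468). Its Ly86 tumors lay above all Vector tumors as mean log2 values, but as mean TPM Ly86 tumor 4 (2.67 TPM) lay below Vector tumor 2 (2.735 TPM). The log2 differences of Il2rg and Il2rb without Vector tumor 1 were 0.44 and 0.29.

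For interleukin 10, the second receptor chain Il10rb was abundant and even, at 122.9 to 165.8 TPM in the Ly86 libraries and 90.5 to 175.7 TPM in the Vector libraries, with a log2 difference of 0.069 (SE 0.16, limma adjusted p = 0.918). It ran opposite to Il10ra in Vector tumor 2, whose first piece held the lowest Il10rb level and the highest Il10ra level. Of 10 genes in the interleukin 10 signaling list, 9 averaged higher in the Ly86 tumors, against 43.8% of all tested genes, with a median of 0.23. An unadjusted p under 0.05 was reached by 2 of the 10, against 10.8% of all tested genes, and 0 passed. The 2 were Il1rn, the interleukin 1 receptor antagonist, at 1.13 (SE 0.35), and Bcl3, an NF-kB cofactor, at 0.79 (SE 0.26), both with a limma adjusted p of 0.437. Il1rn ranged from 22.5 to 56.0 TPM in the Ly86 libraries and from 5.93 to 48.6 TPM in the Vector libraries.

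Tgfb1, the cytokine that GARP anchors, was 52.8 to 87.0 TPM in the Ly86 libraries and 33.8 to 90.6 TPM in the Vector libraries, with a log2 difference of 0.33 (SE 0.19, limma adjusted p = 0.573). Nrros, which encodes the corresponding anchor on macrophages and microglia, differed by 0.65 (SE 0.21, adjusted p = 0.437), and Ltbp1, an anchor in the matrix, by 0.66 (SE 0.25, adjusted p = 0.448). Nrros was 25.2 to 42.5 TPM in the Ly86 libraries and 9.98 to 38.7 TPM in the Vector libraries, higher than Lrrc32 in every library. Of 10 tested genes on the TGF-beta list, 7 averaged higher in the Ly86 tumors, against 43.8% of all tested genes. Their median was 0.24, and 0 passed in limma. An unadjusted p under 0.05 was reached by 2 of the 10, against 10.8% of all tested genes.

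CCR8 binds the chemokines CCL1 and, in mice, CCL8. Ccl8 was among the most abundant genes described here, with 709 and 1097 TPM in the pieces of Ly86 tumor 1 and 442, 1105 and 857 TPM in Ly86 tumors 2 to 4. It held 37.0 and 97.9 TPM in the pieces of Vector tumor 1, 1651 and 67.4 TPM in those of Vector tumor 2, and 379 TPM in Vector tumor 3. With the pieces averaged as log2 values the lowest Ly86 tumor exceeded the highest Vector tumor, but with TPM averaged Vector tumor 2 (859 TPM) lay above Ly86 tumors 2 and 4. Ccl8 had a log2 difference of 1.98 (SE 0.62, limma adjusted p = 0.437), beside 0.094 for its receptor gene Ccr8. Ccl1 was at most 2.16 TPM in the Ly86 libraries and 1.24 TPM in the Vector libraries, with a log2 difference of 0.55 (SE 0.30, adjusted p = 0.539). Of 8 tested genes on this list 7 averaged higher, against 43.8% of all tested genes, with a median of 0.69 and 0 passing in limma. An unadjusted p under 0.05 was reached by 3 of the 8, against 10.8% of all tested genes. For 3 the Ly86 tumors all exceeded the Vector tumors as mean log2 values, against 4.71%.

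**Figure D4:**
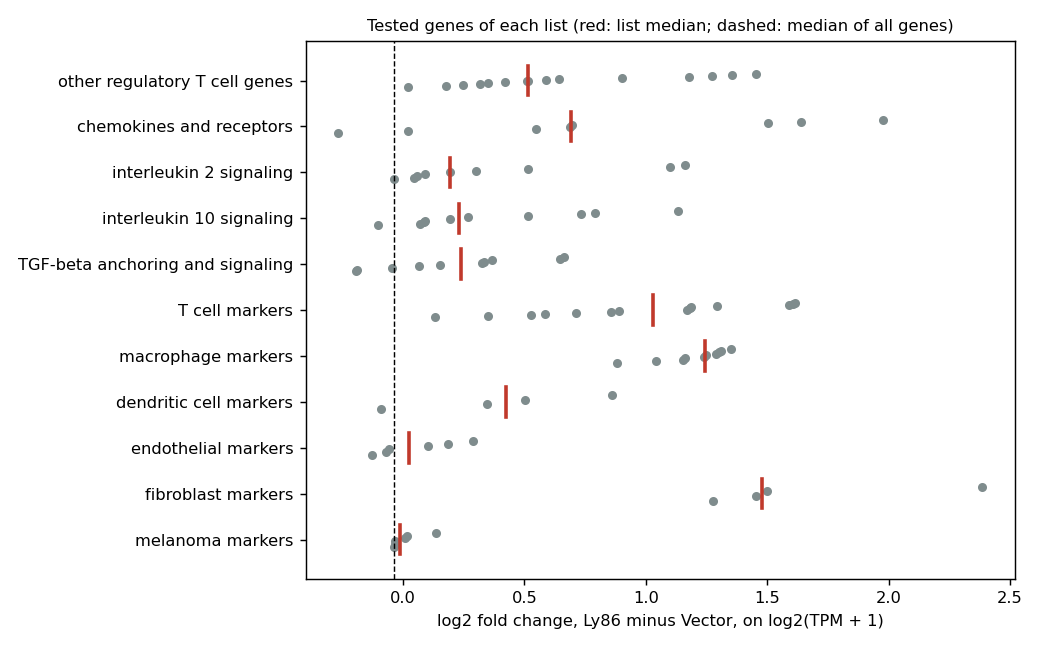
Log2 fold change, Ly86 minus Vector, on the log2(TPM + 1) scale (horizontal axis) for the tested genes of 11 lists, 1 grey point per gene; red bars are list medians and the dashed line the median of all 14556 tested genes, -0.037. The T cell, macrophage and fibroblast marker lists have medians of 1.03, 1.24 and 1.48, and the endothelial and melanoma marker lists of 0.023 and -0.011.

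Markers of other cells that carry these genes are given beside them. None passed in limma, and their part in the members' values was not tested. An unadjusted p under 0.05 was reached by 6 of 14 T cell, 9 of 10 macrophage and 0 of 6 endothelial markers, against 10.8% of all tested genes. With TPM averaged before the log, 0, 1 and 0 reached it, as did 1211 of 14556 genes. As mean log2 values, the Ly86 tumors all exceeded the Vector tumors for 1 T cell, 6 macrophage and 0 endothelial markers, against 4.71% of all tested genes. All 14 T cell markers averaged higher in the Ly86 tumors, against 43.8% of all tested genes. Their summed level was 73.2 to 172.6 TPM in the Ly86 libraries and 14.5 to 272.6 TPM in the Vector libraries. Their median log2 difference was 1.03, and 0.47 with 11 of 14 higher when Vector tumor 1 was left out. All 10 macrophage markers averaged higher, with sums of 1101 to 2057 TPM in the Ly86 libraries and 197.8 to 3273 TPM in the Vector libraries, and a median of 1.24 that was 0.62 with Vector tumor 1 left out. Of 6 endothelial markers 3 averaged higher, the median being 0.023 and, with quantile normalization, -0.030, with sums of 78.0 to 170.2 TPM in the Ly86 libraries and 65.9 to 295.6 TPM in the Vector libraries. Of 4 platelet markers 3 were tested and 2 averaged higher, with a median of 0.27, and the list summed to 75.9 to 306.1 TPM in the Ly86 libraries and 8.47 to 311.3 TPM in the Vector libraries. Most of that sum was Pf4, which some macrophages also express, while Gp9 was listed at 0 in all Ly86 libraries and reached 0.59 TPM in the Vector libraries. The B cell markers summed to 1.62 to 3.42 TPM in the Ly86 libraries and 0.70 to 6.5 TPM in the Vector libraries. Among them Cd79b held 1.31 to 2.8 TPM in the Ly86 libraries and 0.10 to 5.41 TPM in the Vector libraries, and Cd79a 0.17 to 0.31 TPM in the Ly86 libraries and 0.38 to 0.91 TPM in the Vector libraries. Il10ra amounted to between 0.690% and 1.18% of the macrophage marker sum in the Ly86 libraries and between 0.521% and 1.32% in the Vector libraries. It amounted to between 7.74% and 13.6% of the T cell marker sum in the Ly86 libraries and between 5.68% and 15.4% in the Vector libraries, so the groups overlapped on both scales.

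The genes whose profile over the 7 tumors was most like that of Foxp3 were sought by the root mean square difference of the centred log2(TPM + 1) profiles, which favours genes of similar amplitude. The closest 5 among the tested genes were Id3 at 0.092, Slc16a3 at 0.10, Gucd1 at 0.11, Ntn4 at 0.11 and B3gnt9 at 0.11 log2 units. Id3 encodes an inhibitor of helix-loop-helix transcription factors and Slc16a3 a lactate transporter. The other members were farther from Foxp3, with Ccr8 at 0.20, Ikzf2 at 0.20, Lrrc32 at 0.21, Il2ra at 0.41, Il10 at 0.57 and Il10ra at 0.71, and 165 tested genes lay closer to Foxp3 than Ccr8 did.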

How the data were processed

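Polyadenylated RNA of B16F10 tumors was sequenced on a NovaSeq instrument, per the labels' protocols. The submitters' processing notes name STAR 2.7.10b, RSEM 1.3.3 and the build mm39. The deposited table holds log2 values, log2(TPM + 1) as read from the values: 99.9% gave multiples of 0.01 TPM, to within 1e-04 hundredths, with library sums of 994679 to 996446. Depth is unknown, since TPM does not keep it, so no counting interval is given. The labels do not say that tumors came from different mice, and the p-values cover only the variation among the samples at hand, which may be technical.

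Pieces were averaged on the log2 scale, giving 4 Ly86 and 3 Vector tumors. Genes with a mean of at least 1 TPM (14556) were fitted with limma 3.58.1 in R 4.3.3 (eBayes with trend), two-sided, with Benjamini-Hochberg adjustment over all tested genes and a threshold of 0.05. Members below 1 TPM were taken from the fit without a minimum (27919 genes). The test had been planned for TPM and suited the deposited log2 scale. Ratios were log2 ratios of TPM without a pseudocount, compared by exact permutation over tumors. The fit was tested on simulated data. The members and lists were chosen with earlier results of these data known. Named were the members, Cd3e, Cd8a, Ly86, direct partners of members, the 2 tested genes with the smallest unadjusted p in each pathway list and the 5 closest to Foxp3; 1 gene under this rule is not reported here. Marker levels were listed as TPM sums. Alternatives covered pseudocount, minimum, scaling, pieces, variance model, replicate block and leaving out each tumor. A further alternative, omission of the high (first) piece of Vector tumor 2, was chosen after seeing the data. Promoter sequences come from RefSeq GRCm38.p6, matched by symbol. Figures were drawn with matplotlib 3.10.9.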

Additional observations from a re-analysis of the deposited data

Results flagged for a closer look

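Among the Ly86 tumors, tumor 3 stood apart from the other three for 2 values, by Dixon's criterion for 4 samples. Its Il10ra level was 3.17 log2(TPM + 1), against 4.06 to 4.19 in the other Ly86 tumors. Its Cd8a level was 2.46 log2(TPM + 1), against 3.74 to 3.90 in the others. Ly86 tumor 3 also had the lowest T cell marker sum of its group, 73.2 TPM. In all 33 sets of 4 Ly86 tumors were examined, and chance alone marks about 1 in 20 such sets.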

How the results depend on the processing

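Over all alternatives the log2 differences of Il2ra, Il10 and Il10ra stayed above 0, and those of the Foxp3 ratios to Cd3e and Cd8a stayed below 0. Members whose sign turned were these. With divided tumors represented by their first piece, Foxp3 was -0.059, Ccr8 -0.060 and Lrrc32 -0.41. With limma's array weights, where Vector tumor 3 weighed 22.8 and the others under 1, Foxp3 was -0.13, Ikzf2 -0.044 and Lrrc32 -0.34, and Il10 passed at 1.05 (adjusted p = 0.0346). That weight estimation did not converge. Lrrc32 was also -0.12 with quantile normalization and -0.18 with TPM averaged before the log. Leaving out each tumor in turn gave -0.15 to 0.29 for Foxp3, -0.0082 to 0.43 for Ikzf2, -0.025 to 0.20 for Ccr8 and -0.30 to 0.28 for Lrrc32. The number of genes past the threshold was 0 as reported, 1 with only the first pieces, 6 with only the second, 1832 with array weights, 1 with the high piece of Vector tumor 2 omitted, and 0 to 2 with a tumor left out. The cause was not tested.

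Same-numbered tumors did not deviate together (r of -0.17, -0.11 and -0.31 across genes), and other pairs gave -0.22 to 0.35. With 4 and 3 tumors, these values cannot settle whether the numbers pair them. With the tumor number as a replicate block, Lrrc32 was -0.099 and 0 genes passed. Unknown depth limits the members under 1 TPM, Foxp3, Il2ra and Ccr8.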

Other observations

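Set against the macrophage markers, Lrrc32 was lower in the Ly86 tumors. It amounted to between 0.234% and 0.452% of the macrophage marker sum in the Ly86 libraries and between 0.545% and 1.05% in the Vector libraries, and no libraries of the groups overlapped. The macrophage markers had a median log2 difference of 1.24, beside 0.047 for Lrrc32. How many other genes separate the groups on this quotient was not counted, so the gap cannot be read as particular to Lrrc32. The quotient was chosen after its values were seen and was not tested. Set against the endothelial markers, Lrrc32 came to between 3.34% and 5.83% in the Ly86 libraries and between 2.11% and 6.03% in the Vector libraries, and the groups overlapped.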
